A study of Homo sapiens with 18 samples.

Results

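The 10 transcripts described here, UCA1, H19, MALAT1, NEAT1, PVT1, GAS5, HOTAIR, TUG1, MEG3 and SNHG16, are long noncoding RNAs linked to bladder cancer (BLCA) or to the growth state of cells. They were chosen by name, with earlier results of these data known, and all 10 were among the 39496 genes of the count and RPKM tables (RPKM is the count scaled by gene length and library total, so that levels of different genes can be compared per length). The cells were UM-UC-3 and T24, which are established human BLCA lines, transfected with a negative control siRNA (siNC), with siACAT1-1 or with siACAT1-2. Both of the latter target ACAT1, a mitochondrial acetyl-CoA acetyltransferase. Each of the 6 groups held 3 libraries from separate experiments, and all 18 libraries came from transfected cells, so no untreated cells were measured. T24 cells were grown in RPMI-1640 and UM-UC-3 cells in MEM, so cell line and medium cannot be told apart, and each line is 1 established line rather than a sample of tumors.

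Long noncoding RNAs are transcripts that are not translated into a protein. Some stay in the nucleus, such as MALAT1 in nuclear speckles and NEAT1 as the scaffold of paraspeckles, which are nuclear bodies built on that RNA. H19 and MEG3 are expressed from 1 parental allele and lie beside the imprinted genes IGF2 and DLK1, and HOTAIR lies inside the HOXC gene cluster. GAS5 and SNHG16 are host genes whose introns carry small nucleolar RNAs (snoRNAs) that guide the modification of ribosomal RNA. UCA1 was first described in urothelial carcinoma, and TUG1 and PVT1 are RNAs expressed in many tissues. The libraries were made with an mRNA kit. How it selects RNA is not given in the sources used here, and processed MALAT1 and the long form of NEAT1 lack a poly(A) tail, so their levels are those this kit captured.

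The total count of a library was 25163490 to 34417230 (median 28613163). ACAT1 was lower in every library with an ACAT1 siRNA than in every siNC library of its line, with log2 fold changes from -4.45 to -3.64. It was at 44.1 to 47.4 RPKM with siNC and 1.83 to 3.59 RPKM with either siRNA in UM-UC-3 cells, and at 14.6 to 17.1 against 0.671 to 1.46 RPKM in T24 cells. The epithelial keratins KRT8 and KRT18 were expressed at 40.6 ± 4.64 and 142 ± 17.2 RPKM (SD, n = 3) in UM-UC-3 siNC and at 250.4 ± 116 and 236 ± 68.7 RPKM in T24 siNC. Over all T24 libraries the median was 223 RPKM for KRT7, 18.1 for KRT19, 4.53 for PPARG, 1.24 for FOXA1, 1.08 for EPCAM and 0.183 for GATA3. Over all UM-UC-3 libraries these medians were 2.93, 0.0910, 0.190, 0.0890, 0.0281 and 0.0958 RPKM. TP63 went the other way (0 in T24 and 0.122 in UM-UC-3), and KRT5 had a median of 0 in both. The urothelial genes UPK1B and UPK3A and the epithelial cadherin gene CDH1 were listed at 0 in all 6 siNC libraries. UPK2, of the same family, was low but detected, at 0.152 to 0.602 RPKM over all UM-UC-3 libraries and 0.321 to 0.660 RPKM over all T24 libraries. UPK1A was at 0.130 to 0.436 RPKM and 0 to 0.157 RPKM. Of the 11 markers of other cell types, CD68 was high and the remaining 10 summed to between 1.51 and 2.54 RPKM in every library. With siNC, 1 of the 11 tested epithelial or urothelial markers was called higher in UM-UC-3 than in T24 cells and 6 were called lower (edgeR, adjusted p under 0.05). Of the 5 tested markers of other cell types 2 were called higher, where 44.3% of all genes were called. KRT19 and EPCAM had at most 12 and 8 counts in a UM-UC-3 library, and TP63 at most 4 in a T24 library. They passed the filter on low counts through the other line, so calls on such markers are a description. Within a line, libraries that carry one replicate number tended to depart from their groups in the same direction. The T24 libraries of number 2 and the UM-UC-3 libraries of number 3 stood apart from the others in several of the RNAs below. Several results that rest on them are given with and without them, and others with all libraries only.

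In UM-UC-3 siNC cells, the RNAs fell in the order MALAT1 (220.3 ± 31.1 RPKM, SD, n = 3), NEAT1 (107 ± 57.1), GAS5 (21.0 ± 5.10), H19 (12.7 ± 2.65), TUG1 (7.94 ± 0.031), SNHG16 (5.004 ± 0.908) and PVT1 (2.32 ± 0.449). The ranges of the 3 libraries did not overlap between any neighbors in this order. In T24 siNC cells, MALAT1 (93.0 ± 32.2 RPKM, SD, n = 3) and NEAT1 (56.9 ± 19.8) came first with overlapping ranges, followed by GAS5 (19.6 ± 3.71). TUG1 (8.65 ± 1.18 RPKM), UCA1 (7.80 ± 6.66) and SNHG16 (4.19 ± 1.06) then overlapped with each other in turn, and PVT1 (2.39 ± 0.331) and H19 (0.217 ± 0.137) were lowest. The 2 remaining RNAs were close to 0 counts. HOTAIR, which binds chromatin-modifying complexes, had 0 to 4 counts in any library, and MEG3, a growth-restraining imprinted RNA, had 0 to 8 counts. Neither of these 2 passed the filter on low counts, so 8 of the 10 RNAs were tested.

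**Figure D1:**
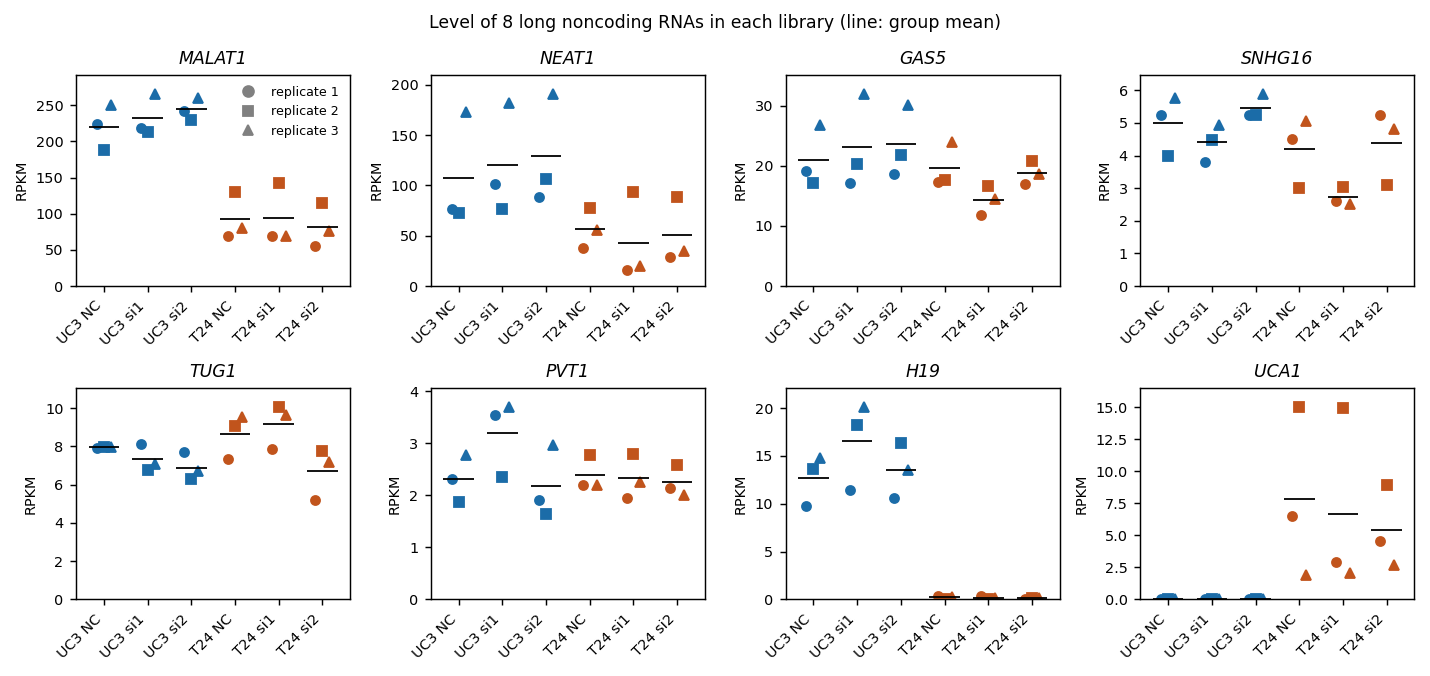
Deposited RPKM (linear axis from 0) of the 8 tested RNAs in each of the 18 libraries; UC3 is UM-UC-3, NC is siNC, si1 and si2 are siACAT1-1 and siACAT1-2, the marker shape gives the replicate number and the horizontal line the group mean. H19 is near 0 in all T24 groups and UCA1 in all UM-UC-3 groups, MALAT1 is higher in every UM-UC-3 library than in any T24 library, and replicate 2 of T24 is the highest of its group for UCA1, MALAT1 and NEAT1.

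The first comparison was between the cell lines under siNC. The analysis revealed a difference for 3 of the 8 tested RNAs with edgeR's quasi-likelihood test at an adjusted p under 0.05, where 44.3% of all 20144 genes tested were called. H19 and MALAT1 were higher in UM-UC-3 cells and UCA1 was higher in T24 cells. H19 and UCA1 passed the filter on low counts almost entirely through 1 line, so that their calls follow from being expressed almost only in that line and are a description. Of the other 6, only MALAT1 was called, and over all 3 siRNAs of each line 4 were (MALAT1, NEAT1, GAS5 and SNHG16), beside 66.1% of all genes. In these bulk samples, fewer cells with an RNA and less RNA per cell cannot be told apart.

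With siNC, H19 had the largest fold between the lines among the RNAs with counts in both. It lies at chr11:1995163-2001470 on the minus strand (GRCh38, as the deposited table gives it) and is a spliced RNA that is abundant in the embryo and silent in most adult tissues. In UM-UC-3 siNC cells it was at 9.76, 13.7 and 14.8 RPKM in replicates 1, 2 and 3, and in T24 siNC cells at 0.3497, 0.0754 and 0.227 RPKM. The T24 values rest on 34, 6 and 18 counts, so they are few reads. The groups did not overlap: H19 was 56.7-fold higher in UM-UC-3 cells by summed counts (log2 fold change 5.86, standard error (SE) 0.58, adjusted p = 5.1e-07). That call follows from H19 being expressed almost only in UM-UC-3 cells, so its adjusted p is a description. With siACAT1-1 the UM-UC-3 values were 11.5, 18.2 and 20.1 RPKM and with siACAT1-2 they were 10.6, 16.3 and 13.5 RPKM, while the 6 T24 values with an ACAT1 siRNA lay between 0.0235 and 0.366 RPKM.

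H19 is also the precursor of a microRNA, and its sequences are shown because the host transcript differed so much between the lines. Both mature arms lie inside an exon of H19 on its strand, at chr11:1996768-1996787 for the 3p arm and chr11:1996800-1996822 for the 5p arm (GRCh38.p14, RefSeq). The arms are printed 5′ to 3′ with the seed, bases 2 to 8, in capitals, and they were not measured by this assay. The promoter of H19 (250 bases before to 50 after the RefSeq start, chr11:2001217-2001516, minus strand) follows them.
hsa-miR-675-3p: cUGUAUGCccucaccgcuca
hsa-miR-675-5p: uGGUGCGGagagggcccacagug
H19 promoter: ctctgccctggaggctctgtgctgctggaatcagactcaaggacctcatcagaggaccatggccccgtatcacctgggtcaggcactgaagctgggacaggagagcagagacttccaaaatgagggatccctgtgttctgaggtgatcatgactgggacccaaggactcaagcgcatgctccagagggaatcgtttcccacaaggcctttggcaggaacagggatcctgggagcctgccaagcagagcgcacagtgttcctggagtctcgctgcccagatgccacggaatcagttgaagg
The 2 arms carry different seeds. The H19 promoter holds 6 CpG dinucleotides, beside a median of 14 over the 35116 promoters of the RefSeq table. The motifs searched on both strands of all promoters were TATAAA (in 11.5% of them), CCAAT (34.6%) and CACGTG (7.26%), and none of the 3 is in this window.

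UCA1 was detected almost entirely in T24 cells. It lies at chr19:15828961-15836320 on the plus strand. In T24 siNC cells it was at 6.51, 15.0 and 1.88 RPKM, in T24 cells with siACAT1-1 at 2.96, 14.9 and 2.09 RPKM and with siACAT1-2 at 4.58, 8.96 and 2.67 RPKM. The library of replicate 2 was the highest in each of these groups. In UM-UC-3 cells UCA1 had 2 counts in 1 library with siACAT1-1 and 0 in the other 8 libraries. With siNC, 0 counts stood against 1609 in T24 cells, and set against a floor of 3 counts over the group UCA1 was at least 539.7-fold higher in T24 cells (adjusted p = 8.3e-05 with edgeR). That call follows from UCA1 being found almost only in T24 cells, so its adjusted p is a description. Replicate 2 held 973 of the 1609 counts, and replicates 1 and 3 held 515 and 121. The bound was not computed without replicate 2.

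MALAT1, a nuclear RNA with the highest mean RPKM of the 10 in both lines, lies at chr11:65497762-65506516 on the plus strand. In UM-UC-3 siNC cells it was at 224, 188 and 249.5 RPKM and in T24 siNC cells at 68.6, 129 and 80.8 RPKM. By counts summed over the siNC libraries, which are not scaled by length, NEAT1 was above it (224096 against 175512 in UM-UC-3 cells and 114642 against 72450 in T24 cells), with counts per library that overlapped in both lines. Every UM-UC-3 value of MALAT1 was above every T24 value, and this also held over all 18 libraries (188 to 266 against 55.7 to 143 RPKM). By summed counts MALAT1 was 2.41-fold higher in UM-UC-3 cells with siNC (log2 fold change 1.30, SE 0.27, adjusted p = 9.5e-04). It was also called without the T24 libraries of number 2, beside 43.9% of all genes, and without the UM-UC-3 libraries of number 3. RefSeq lists 2 promoters for this gene, and the one shown (chr11:65498795-65499094, plus strand, GRCh38.p14) starts within the gene's entry in the table and holds TATAAA, in capitals, beginning 30 bases before the start.
MALAT1 promoter: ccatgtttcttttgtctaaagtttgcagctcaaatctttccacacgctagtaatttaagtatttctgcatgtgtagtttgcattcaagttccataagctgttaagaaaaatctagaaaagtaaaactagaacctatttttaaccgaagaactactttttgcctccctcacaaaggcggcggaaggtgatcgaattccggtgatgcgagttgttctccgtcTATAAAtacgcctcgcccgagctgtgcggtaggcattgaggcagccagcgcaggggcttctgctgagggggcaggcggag
A match to these letters is a description of the window and not evidence of use. The other RefSeq promoter of MALAT1 is at chr11:65497488-65497787 and holds none of the 3 motifs.

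NEAT1, the neighbor of MALAT1 at chr11:65422774-65445540 on the plus strand, ran higher in UM-UC-3 cells but with far more spread. In UM-UC-3 siNC cells it was at 76.7, 72.4 and 173 RPKM and in T24 siNC cells at 37.7, 77.2 and 55.8 RPKM. The ranges overlapped and the difference was not called (log2 fold change 0.97, SE 0.58, adjusted p = 0.186). Without the T24 libraries of number 2 it was called (log2 fold change 1.19, adjusted p = 0.0305, beside 43.9% of all genes), a choice made after seeing the data. Over all siRNAs the log2 fold change was 1.28 (SE 0.33, adjusted p = 0.0028 with edgeR), beside 66.1% of all genes, in a test that treats libraries of the same number as independent. With the number as a random block in limma voom it was 1.40 (SE 0.36, adjusted p = 0.0028), beside 52.4% of all genes. Among the 18 genes of paraspeckle proteins that were tested, 4 were called higher in UM-UC-3 siNC cells and 4 lower, close to the 44.3% called among all genes. Their median log2 fold change was 0.09 beside 0.03 for all genes. The higher ones included CPSF7 and HNRNPA1 (both 0.82) and NONO (0.45), an RNA-binding protein needed for paraspeckles. SMARCA4, a chromatin remodeler (-1.83), and ZNF24 (-1.30) were among the lower ones.

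GAS5, SNHG16, TUG1 and PVT1 had overlapping ranges in the 2 lines with siNC. GAS5, which accumulates when growth is arrested, lies at chr1:173863900-173868882 on the minus strand. It was at 19.1, 17.1 and 26.7 RPKM in UM-UC-3 cells and 17.3, 17.7 and 23.9 RPKM in T24 cells (log2 fold change 0.14, SE 0.23). SNHG16 (chr17:76557766-76565348, plus strand) was at 5.25, 3.999 and 5.77 RPKM in UM-UC-3 cells and 4.51, 3.00 and 5.05 RPKM in T24 cells (log2 fold change 0.29, SE 0.23). TUG1 (chr22:30970677-30979395, plus strand) was at 7.91, 7.96 and 7.96 RPKM against 7.32, 9.09 and 9.56 RPKM (log2 fold change -0.07, SE 0.15). None of these was called, with an adjusted p of 0.336 for SNHG16, 0.665 for GAS5 and 0.715 for TUG1. Over all siRNAs GAS5 (log2 fold change 0.39, SE 0.13, adjusted p = 0.0161) and SNHG16 (0.44, SE 0.14, adjusted p = 0.0093) were called higher in UM-UC-3 cells. That test treats libraries of the same number as independent, and with the number as a random block in limma voom the adjusted p was 0.0813 for GAS5 and 0.0810 for SNHG16, so that neither was called, beside 52.4% of all genes. Without the UM-UC-3 libraries of number 3 neither was called in edgeR, beside 62.4% of all genes.

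PVT1, the noncoding neighbor of MYC that carries several microRNAs, lies on chromosome 8 from 127794533 to 128101253 on the plus strand. It was at 2.32, 1.87 and 2.77 RPKM in UM-UC-3 siNC cells and at 2.19, 2.77 and 2.21 RPKM in T24 siNC cells. These ranges overlapped almost fully, with a log2 fold change of 0.0037 (SE 0.22, adjusted p = 0.991). Its sign is therefore not fixed by the data and turned under other settings.

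Other host genes of snoRNAs, the class to which GAS5 and SNHG16 belong, were compared as a list of 19, of which 18 were tested. With siNC, 8 of the 18 were called higher in UM-UC-3 cells and 1 was called lower, near the 44.3% called among all genes. The median log2 fold change of the 18 was 0.45 beside 0.03 for all genes. SNHG5 was at 22.4 ± 5.48 RPKM against 5.52 ± 0.780 RPKM in T24 cells (SD, n = 3, log2 fold change 2.06), SNHG4 had a log2 fold change of 2.26 and EPB41L4A-AS1 of 0.92. SNHG4 shares 28.8% of its exon bases with MATR3, so its counts are uncertain. SNHG14, the long imprinted RNA of the SNRPN locus, was the one called lower (-2.56). GAS5 and SNHG16, at log2 fold changes of 0.14 and 0.29 in the same comparison, were thus below the median of this list.

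Several neighbors of the imprinted RNAs and of HOTAIR differed between the lines. Of 18 matched neighbors 10 were tested, and 2 were called higher and 6 lower in UM-UC-3 siNC cells, with 44.3% of all genes called in either direction. KCNQ1OT1, HOXC5, HOXC9 and HOXC10 were at or near 0 in 1 line and, like H19 and UCA1, passed the filter through the other, so the count of called neighbors is a description. IGF2, the growth factor gene beside H19 on chromosome 11, was at 66.5 ± 20.8 RPKM in UM-UC-3 siNC cells and 0.848 ± 0.402 RPKM in T24 siNC cells (SD, n = 3, log2 fold change 6.36, adjusted p = 4.1e-08). H19 and IGF2 were therefore both high in UM-UC-3 cells and both low in T24 cells. IGF2 shares 15.9% of its exon bases with the readthrough gene INS-IGF2. KCNQ1OT1, the antisense RNA of the next imprinted domain, was also called higher, at 0.0564 ± 0.00173 RPKM against 0.000259 ± 0.000449 RPKM, while CDKN1C of that domain was at 0.323 ± 0.207 and 0.256 ± 0.113 RPKM.

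Around HOTAIR, 6 HOXC homeobox genes were lower in UM-UC-3 cells, the opposite direction to H19 and IGF2, while HOXC13 was at 0.662 ± 0.307 RPKM against 0.437 ± 0.0779 RPKM (SD, n = 3) and was not called (adjusted p = 0.233). Over all siRNAs HOXC13 was called higher in UM-UC-3 cells by edgeR (log2 fold change 0.66, adjusted p = 0.0209), beside 66.1% of all genes. That test treats libraries of the same number as independent, and a fit of HOXC13 with the number as a random block is not reported here. HOXC9 was listed at 0 in all 3 UM-UC-3 siNC libraries and was at 20.2 ± 2.10 RPKM (SD, n = 3) in T24 siNC cells. HOXC8 (2.16 ± 0.301 against 6.12 ± 0.869 RPKM), HOXC4 (1.16 ± 0.367 against 3.13 ± 0.326 RPKM) and HOXC6 (0.771 ± 0.0296 against 1.99 ± 0.521 RPKM) were lower in UM-UC-3 cells, as were HOXC10 and HOXC5. HOXC4, HOXC5 and HOXC6 share exon bases with other entries of the cluster and are uncertain singly. HOXC4, HOXC6, HOXC8, HOXC13, CDKN1C and DLK1 are named for their position, after their values were seen. HOTAIR itself stayed between 0 and 0.0539 RPKM in both lines, so it did not share the T24 level of HOXC9. At MEG3, the neighbor DLK1 was also close to 0, at 0 in UM-UC-3 siNC cells and at most 0.0109 RPKM in T24 siNC cells.

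**Figure D2:**
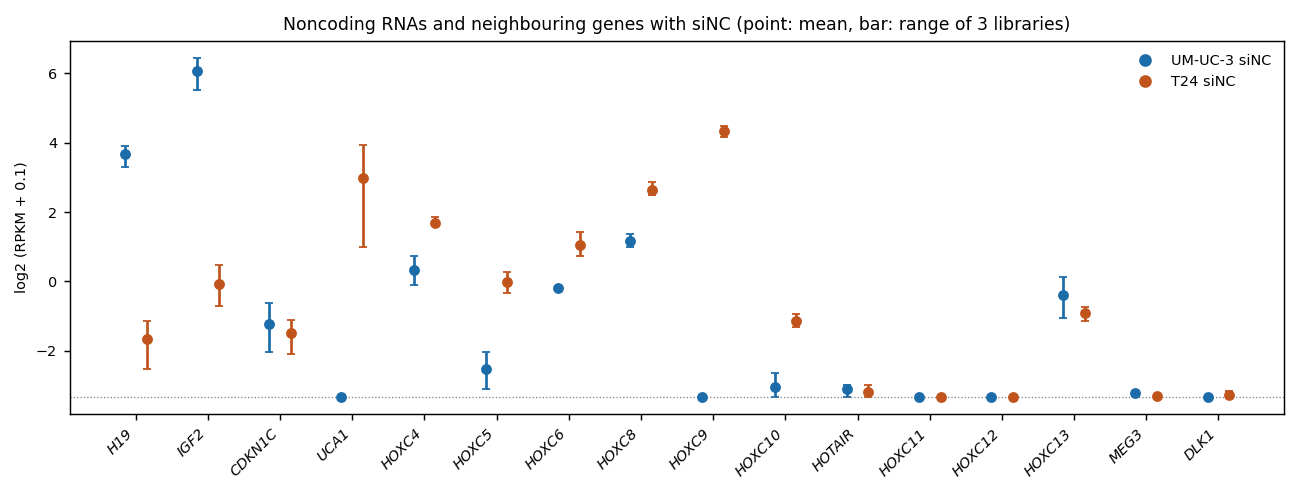
log2 (RPKM + 0.1) of H19, UCA1, HOTAIR, MEG3 and neighboring imprinted and HOXC genes in siNC cells of both lines; points are means of 3 libraries, bars their range, and the dotted line is a level of 0. H19 and IGF2 sit high in UM-UC-3 and low in T24, HOXC9 shows the reverse, and HOTAIR, MEG3, HOXC11, HOXC12 and DLK1 lie at or near the dotted line in both.

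Among 20 further cancer-linked noncoding RNAs that were tested, 7 were called higher in UM-UC-3 siNC cells and 3 lower, near the 44.3% called among all genes. Their median log2 fold change was 0.50. LUCAT1 (2.35), MIR100HG (1.96), which hosts microRNAs of the miR-100 cluster, and DLEU1 (1.40) led the higher ones. NORAD, which binds Pumilio proteins and guards chromosome stability, was at 28.4 ± 2.21 RPKM in UM-UC-3 cells and 84.2 ± 16.996 RPKM in T24 cells (SD, n = 3, log2 fold change -1.52). CCAT1 was at 0 to 0.0332 RPKM against 3.93 to 14.1 RPKM, and CDKN2B-AS1 was listed at 0 in UM-UC-3 siNC cells and at 0.362 ± 0.0839 RPKM in T24 siNC cells. UCA1, CCAT1 and CDKN2B-AS1 were thus all found almost entirely in T24 cells, chosen for mention after their values were seen, and all 3 passed the filter through that line, so that their calls follow from it.

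Several of the RNAs differed between the replicate numbers of a cell line. A test of the number within each line, added after the data were seen, called 4 of 8 RNAs in UM-UC-3 cells (H19, NEAT1, PVT1 and GAS5), beside 24.6% of all genes. In T24 cells it called 5 of 8 (UCA1, H19, MALAT1, NEAT1 and TUG1), beside 43.9% of all genes. UCA1 had only 2 counts over the 9 UM-UC-3 libraries, so it could not be called in that line. H19 had 2 to 34 counts in a T24 library and passed the filter through UM-UC-3 cells, so its T24 call is a description. In T24 cells the 3 libraries of number 2 were above all other T24 libraries for NEAT1 (77.2 to 93.3 against 16.3 to 55.8 RPKM), MALAT1 (114 to 143 against 55.7 to 80.8 RPKM) and UCA1 (8.96 to 15.0 against 1.88 to 6.51 RPKM). Their means were 2.68, 1.84 and 3.76 times those of the other T24 libraries. In UM-UC-3 cells the libraries of number 3 were above all others for NEAT1 (173 to 191 against 72.4 to 107 RPKM), GAS5 (26.7 to 32.0 against 17.1 to 21.9 RPKM) and MALAT1 (249.5 to 266 against 188 to 242 RPKM). For MALAT1 in UM-UC-3 cells this was a mean 1.18 times that of the others, and the test of the number did not call it (adjusted p = 0.184).

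Other measures moved with these numbers. The summed level of 12 proliferation genes, among them MKI67, TOP2A and CDK1, was 184 to 347 RPKM in T24 number 2 and 259.9 to 641 RPKM in the other T24 libraries. In UM-UC-3 cells it was 303 to 437 RPKM in number 3 and 566 to 747 RPKM in the others. The share of counts on mitochondrial genes was 3.01% to 3.54% in T24 number 2 and 4.18% to 5.28% in the others, and 4.34% to 5.01% in UM-UC-3 number 3 and 5.72% to 6.17% in the others. The 11 markers of other cell types summed to 122.7 to 170.3 RPKM in T24 number 2 and 17.4 to 43.1 RPKM in the other T24 libraries. This was CD68, a lysosomal protein used as a macrophage marker, since the other 10 summed to 1.51 to 1.86 RPKM in T24 number 2 and the leukocyte marker PTPRC did not exceed 0.017 RPKM in any library. The 15 epithelial markers summed to 302 to 429.5 RPKM in T24 number 2 and 745 to 1101 RPKM in the others. The part of these differences in the levels of the noncoding RNAs was not tested.

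**Figure D3:**
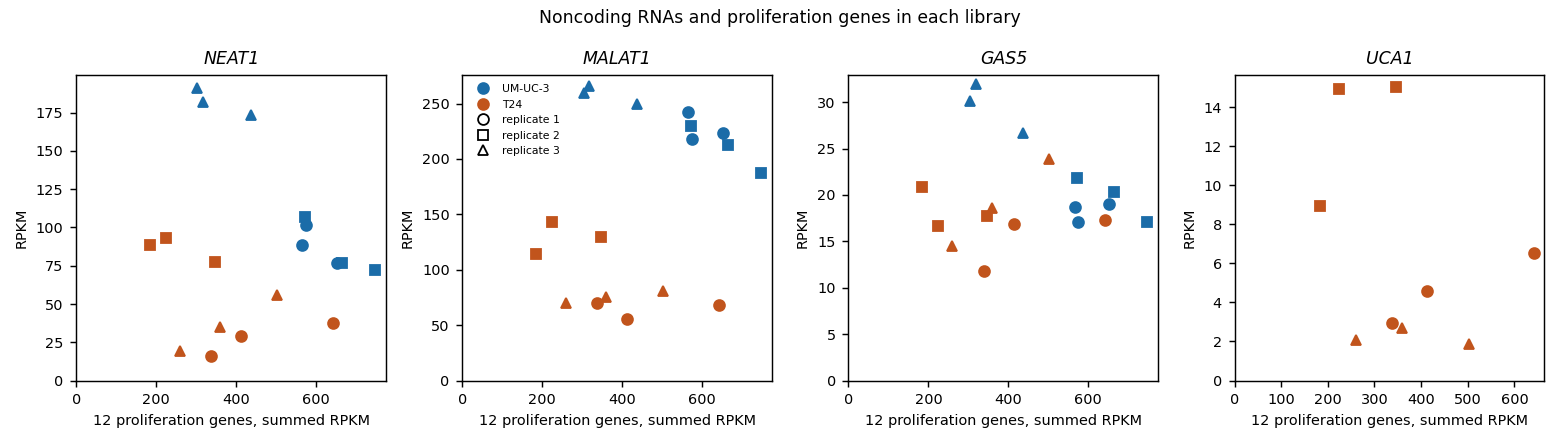
RPKM of NEAT1, MALAT1, GAS5 and UCA1 (vertical, linear from 0) against the summed RPKM of 12 proliferation genes (horizontal) in each library, colored by line and shaped by replicate number; UCA1 is shown for T24 alone. For NEAT1 and MALAT1 the triangles of UM-UC-3 (replicate 3) lie above and to the left of the other libraries of that line, and the squares of T24 (replicate 2) lie above theirs.

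The second comparison was the knockdown of ACAT1. In the model without a block, 0 of the tested RNAs were called by edgeR in any siRNA comparison. The share of all genes called was 0.00993% for siACAT1-1 and 0.0546% for siACAT1-2 in UM-UC-3 cells, 0.124% and 0.268% for the same siRNAs in T24 cells, 0.223% for the mean of the 4, 2.56% between the siRNAs and 0% for the difference of the effect between the lines. At an unadjusted p under 0.05 there was 1 of the RNAs for siACAT1-1 in T24 cells (SNHG16), 1 for siACAT1-2 in T24 cells (TUG1) and 2 between the siRNAs (TUG1 and SNHG16), and 0 in the others. Of all 20144 genes, 2325, 1700 and 3369 were under that p in these 3 comparisons. DESeq2 called 0 except for TUG1 between the siRNAs, where it called 7.77% of all genes. Averaged over both siRNAs and lines, the log2 fold changes lay between -0.24 for H19 (SE 0.33) and 0.06 for PVT1 (SE 0.14). For H19 the values with siACAT1-1 and siACAT1-2 were 0.39 and 0.05 in UM-UC-3 cells. In T24 cells, where H19 had 2 to 34 counts in a library, they were -0.20 and -1.21. UCA1 was left out of every comparison that uses UM-UC-3 knockdown cells, since it is at the floor there.

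Because libraries of a line with the same number moved together, a fit blocked by that number is given beside this. With the block, 13.9% of all genes were called for siACAT1-1 in T24 cells, and so were 3 of the 8 RNAs, all lower: NEAT1, GAS5 and SNHG16. For siACAT1-2 in T24 cells it was 8.48% of all genes and 1 of the 8 (TUG1, lower). Between the siRNAs it was 20.6% of all genes and 3 RNAs. In UM-UC-3 cells (3.06% and 1.36% of all genes), for the mean over both lines (12.4%) and for the difference between the lines (0.104%), 0 of the RNAs were called, and the largest change in UM-UC-3 cells was PVT1 with siACAT1-1 (log2 fold change 0.45, SE 0.13, adjusted p = 0.0656). Without the T24 libraries of number 2, which enter through the shared spread, that change of PVT1 was called (0.47, adjusted p = 0.0412, beside 5.16% of all genes).

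NEAT1 in T24 cells was at 37.7, 77.2 and 55.8 RPKM with siNC and at 16.3, 93.3 and 19.5 RPKM with siACAT1-1 in replicates 1, 2 and 3. It was lower in 2 of 3 pairs and higher in replicate 2, with log2 ratios of -1.21, 0.27 and -1.51. With the block the log2 fold change was -0.80 (SE 0.21, adjusted p = 0.0147), and without it -0.40 (SE 0.57, adjusted p = 0.862). With siACAT1-2 the values were 28.8, 88.6 and 35.2 RPKM, again lower in replicates 1 and 3 alone. In UM-UC-3 cells NEAT1 was higher in 3 of 3 pairs with either siRNA, by log2 ratios of 0.07 to 0.56, and neither was called. Without the T24 libraries of number 2, the blocked log2 fold change for siACAT1-1 was -1.38 (SE 0.14, adjusted p = 2.6e-06), beside 18.3% of all genes called. In that fit NEAT1 was also the one RNA whose knockdown effect was called different between the lines (log2 difference 1.20, SE 0.15, adjusted p = 4.7e-04), where 0.626% of all genes were called. It was the one RNA called for the mean of both lines there too (log2 fold change -0.35, adjusted p = 0.0029, beside 15.6% of all genes). These values without number 2 rest on 2 T24 libraries per group, and with it the difference between the lines had an adjusted p of 0.266. Number 2 was left out after seeing the data, and it holds the only T24 pairs in which NEAT1 was higher. The larger changes and smaller adjusted p without it follow in part from that choice and are a description.

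GAS5 and SNHG16 were both called lower in T24 cells with siACAT1-1 once the block was used. GAS5 was at 11.8, 16.6 and 14.4 RPKM against 17.3, 17.7 and 23.9 RPKM with siNC, lower in 3 of 3 pairs (log2 ratios of -0.73 to -0.09). SNHG16 was at 2.61, 3.05 and 2.51 RPKM against 4.51, 3.00 and 5.05 RPKM, lower in 2 of 3 pairs, with a log2 ratio of 0.02 in replicate 2. With the block the log2 fold change was -0.45 for GAS5 (SE 0.13, adjusted p = 0.0245) and -0.56 for SNHG16 (SE 0.18, adjusted p = 0.0369), and without it the adjusted p was 0.476 and 0.305. Left without the UM-UC-3 libraries of number 3, the blocked fit no longer called SNHG16 (adjusted p = 0.0606, beside 11.6% of all genes). Without T24 number 2 the log2 fold changes were -0.66 for GAS5 and -0.92 for SNHG16, and both were called. That number was left out after seeing the data and holds the only pair in which SNHG16 was not lower with siACAT1-1. With siACAT1-2 in T24 cells GAS5 was at 16.9, 20.8 and 18.6 RPKM and SNHG16 at 5.23, 3.10 and 4.81 RPKM, and neither was called. Of the 18 other snoRNA host genes, 17 had a negative log2 fold change with siACAT1-1 in T24 cells (median -0.44). Without the block 0 were called and with it 9 were, all lower, beside 13.9% of all genes. The largest of these were SNHG8 (-0.99), SNHG12 (-0.73) and SNHG4 (-0.72), and 0 were called in UM-UC-3 cells with either model. With siACAT1-2 in T24 cells 15 of the 18 were negative (median -0.22 beside 0.01 for all genes). Of these, 0 were called without the block and 2 with it, beside 8.48% of all genes. In the blocked comparison of siACAT1-1 in T24 cells all 12 proliferation genes had a negative log2 fold change (median -0.76). There 11 of them were called lower, beside 13.9% of all genes, and without the block 0 were called. The part of these changes in the levels of GAS5 and SNHG16 was not tested.

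The promoters of these RNAs, from RefSeq (GRCh38.p14), are shown because their transcripts moved in the blocked comparisons of T24 cells. That of GAS5 (chr1:173868996-173869295, minus strand) lies just upstream of the table's entry, that of SNHG16 is at chr17:76557514-76557813 on the plus strand and that of TUG1 at chr22:30969015-30969314 on the plus strand, upstream of its entry. Capitals mark CCAAT or CACGTG on either strand.
GAS5 promoter: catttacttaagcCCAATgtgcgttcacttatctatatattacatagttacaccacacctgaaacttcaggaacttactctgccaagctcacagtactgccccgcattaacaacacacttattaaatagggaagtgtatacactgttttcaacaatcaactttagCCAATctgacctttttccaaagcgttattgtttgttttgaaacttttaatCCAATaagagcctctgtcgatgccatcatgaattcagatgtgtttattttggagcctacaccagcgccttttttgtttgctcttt
SNHG16 promoter: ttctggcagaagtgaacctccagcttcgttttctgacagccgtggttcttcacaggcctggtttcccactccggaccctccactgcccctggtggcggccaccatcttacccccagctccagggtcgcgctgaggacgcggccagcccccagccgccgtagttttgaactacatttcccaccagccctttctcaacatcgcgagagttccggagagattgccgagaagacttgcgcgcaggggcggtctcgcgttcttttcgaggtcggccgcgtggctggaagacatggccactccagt
TUG1 promoter: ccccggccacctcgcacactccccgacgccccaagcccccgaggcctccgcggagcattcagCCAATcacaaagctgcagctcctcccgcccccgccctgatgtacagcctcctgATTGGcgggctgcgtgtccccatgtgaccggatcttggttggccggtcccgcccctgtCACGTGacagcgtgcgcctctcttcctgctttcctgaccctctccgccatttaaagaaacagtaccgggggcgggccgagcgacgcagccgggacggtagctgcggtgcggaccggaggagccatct
GAS5 holds 3 copies of CCAAT, beginning 237, 85 and 35 bases before the start, and is poor in CpG (5 in the window). TUG1 holds 2 copies of CCAAT, 1 of them on the other strand, and 1 of CACGTG, with 28 CpG. SNHG16 holds none of the 3 motifs and has 23 CpG. None of the motifs searched is in all 3 windows.

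TUG1, an RNA whose transcripts are partly kept in the nucleus with their introns, was the one RNA that went one way in every pair with siACAT1-2 in both lines. With siACAT1-2 it was at 7.69, 6.27 and 6.69 RPKM in UM-UC-3 cells against 7.91, 7.96 and 7.96 RPKM with siNC, and at 5.19, 7.78 and 7.17 RPKM in T24 cells against 7.32, 9.09 and 9.56 RPKM. It was lower in 6 of 6 pairs of the same number. With siACAT1-1 it was at 8.1001, 6.79 and 7.10 RPKM in UM-UC-3 cells and at 7.88, 10.1 and 9.64 RPKM in T24 cells, lower in 2 of 6 pairs. In T24 cells the blocked log2 fold change with siACAT1-2 was -0.36 (SE 0.10, adjusted p = 0.0341) and without the block -0.35 (SE 0.15, adjusted p = 0.494). Without T24 number 2 it was -0.45 (adjusted p = 0.0255), when H19, at 4 to 34 counts in those libraries, and NEAT1 were also called lower (8.84% of all genes). Without UM-UC-3 number 3 TUG1 alone was called (adjusted p = 0.0463, beside 6.8% of all genes). CD68 moved in the same blocked comparison (log2 fold change 1.05, adjusted p = 1.2e-04). All 12 proliferation genes had a negative log2 fold change there, and 8 were called lower, beside 8.48% of all genes. Without the block 0 of the 12 were called, and the part of these changes in the TUG1 level was not tested.

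The siRNAs differed from each other in 3 of the RNAs in the blocked model over both lines. TUG1 was lower with siACAT1-2 than with siACAT1-1 in 6 of 6 pairs (log2 fold change -0.29, SE 0.073, adjusted p = 0.0071), and PVT1 in 5 of 6 (-0.33, SE 0.094, adjusted p = 0.0178). SNHG16 was higher with siACAT1-2 in 6 of 6 pairs (0.46, SE 0.12, adjusted p = 0.0113). Without the block the adjusted p was 0.152, 0.316 and 0.129. In UM-UC-3 cells PVT1 was at 3.55, 2.35 and 3.70 RPKM with siACAT1-1 against 2.32, 1.87 and 2.77 RPKM with siNC, higher in 3 of 3 pairs, and at 1.91, 1.64 and 2.97 RPKM with siACAT1-2. Without T24 number 2, H19 and NEAT1 joined these 3 in the blocked model, beside 23.2% of all genes, and without UM-UC-3 number 3 the same 3 were called, beside 15.2%.

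**Figure D4:**
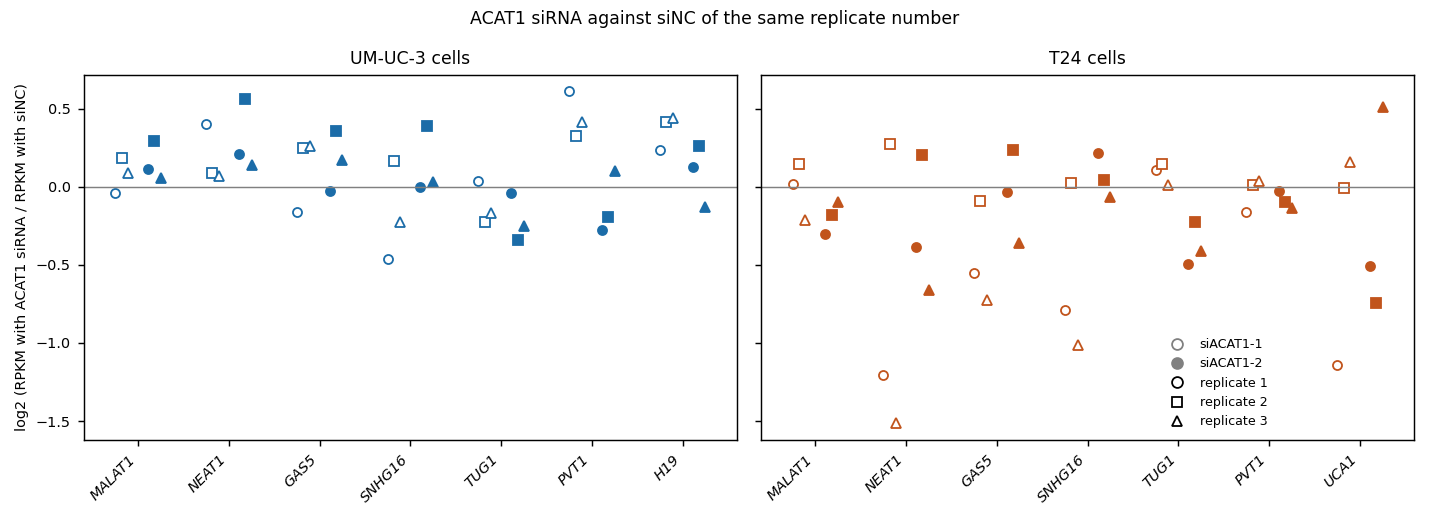
log2 ratio of RPKM with an ACAT1 siRNA to RPKM with siNC of the same line and replicate number; open markers are siACAT1-1, filled markers siACAT1-2, the shape gives the replicate number and the grey line is no change. TUG1 with siACAT1-2 lies below 0 in all 6 pairs, and in T24 the squares (replicate 2) depart from the other 2 for NEAT1 and SNHG16 with siACAT1-1.

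The genes whose level followed each RNA most closely were sought among 13565 genes by Pearson's r of the deviations from the line means over the 18 libraries, which share replicate numbers. For GAS5 they were SNHG5 (r = 0.93), LRRC75A-AS1 (0.89) and ZNFX1-AS1_3 (0.88), all of them entries of noncoding RNAs, and for SNHG16 DNAH11, NAP1L1 and SART1 (0.91 each). For MALAT1 they were CFAP70 (0.95), its own antisense entry AP000769.1 (0.94) and MPV17 (0.93), and for NEAT1 3 entries inside NEAT1 itself (0.98 to 0.99). TUG1 was nearest to CTD-2196E14.9 (0.93), IVD and C11orf49, and PVT1 to MSL2 (0.93), CD163L1 and RBPJ. UCA1, whose spread comes from T24 cells, was nearest to CWF19L2 (0.91), ANKRD30B and AP000432.1, and H19 to TSTD3 (0.83), HOXB3 and ZNF37BP. Between the RNAs themselves, MALAT1 and NEAT1 had r = 0.78 over the 9 UM-UC-3 libraries and 0.83 over the 9 T24 libraries, and GAS5 and SNHG16 had 0.61 and 0.66. GAS5 had r = 0.89 with NEAT1 and 0.82 with MALAT1 in the UM-UC-3 libraries, and 0.57 and 0.05 in those of T24, where UCA1 and PVT1 had 0.86.

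Several shorter entries of the table lie inside these RNAs. In NEAT1, 3 entries on its strand lie within bases 499 to 1344 from its 5′ end, and the longest of them, NEAT1_3, covers 0.698% of its exon bases but was counted at 4.51% to 6.33% of its reads. NEAT1_2 covers 0.461% and was counted at 0.408% to 0.694%, so the share of counts beside the share of bases differed between these entries. Reads that only touch a short entry can add to its count. The median of 654 RPKM of NEAT1_3 therefore cannot be set directly against the RPKM of NEAT1, which is averaged over 22767 bases. TUG1_3 covers 3.49% of TUG1 and held 8.59% to 19.4% of its count, while TUG1_1 covers 2.13% and held 0.0977% to 1.39%. Entries that lie wholly within another on the same strand had counts, so reads that touch 2 entries were assigned to at least 1 of them. The library kit kept the strand of the RNA, but the labels and methods do not give the strand setting used in counting, so whether reads of an antisense entry were kept apart from those of its host depends on that setting and cannot be told. The antisense entry AP000769.1 covers 18.1% of MALAT1 and stood at 6.02% to 7.83% of its count in all 18 libraries, AC004510.3 covers 21.3% of UCA1 and stood at 16.9% to 27.6% of its count in T24 cells, and 2 short entries in H19 had 79 to 274 counts in UM-UC-3 cells and at most 5 in T24 cells.

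**Figure D5:**
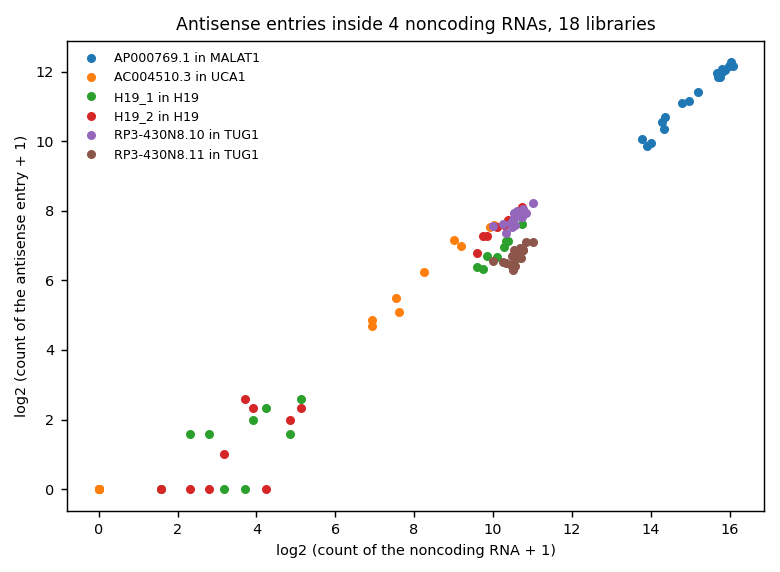
log2 (count + 1) of 6 antisense entries (vertical) against the noncoding RNA that contains them (horizontal), 1 point per library. The entries shown in MALAT1, UCA1 and H19 are high in the libraries where the host is high and low where it is low. Other antisense entries, among them AP000769.7 in MALAT1 and those in PVT1, GAS5 and HOTAIR, are not shown.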

How the data were processed

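The labels place 18 libraries in 6 groups, the 2 cell lines by siNC, siACAT1-1 and siACAT1-2, with 3 experiments each. Per the labels and the study's methods, RNA was sequenced with a stranded mRNA library kit and unique molecular identifiers, trimmed with Trimmomatic 0.36, aligned to GRCh38 with STAR 2.5.3 and counted with featureCounts of Subread 1.5.1. The annotation release, the strand setting and the handling of reads that overlap several genes are not given in the sources used here. The authors deposited raw counts per gene and RPKM values, and the deposited RPKM equal the count over gene length and library total to within 4.36e-06. Of the counts from 1 to 10, 74.4% were even, so 2 counts may often be 1 read pair.

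Counts were tested with edgeR 4.0.16 in R 4.3.3 (TMM factors, filterByExpr, quasi-likelihood F test, Benjamini-Hochberg over the 20144 genes kept, threshold 0.05) with 1 coefficient per group, and the pipeline was tested on simulated data. Alternatives were DESeq2 1.42.0, its size factors, no filter, limma 3.58.1 on log2 (RPKM + 0.1) and log2 (RPKM + 1), each comparison's own libraries, a replicate block and each library left out. Chosen after seeing the data were fits without T24 number 2 or UM-UC-3 number 3, with and without the block, a random block in limma voom and the test of the replicate number. Deviations from group means of libraries of 1 line with the same number had Pearson's r from 0.115 to 0.576 in UM-UC-3 and from 0.356 to 0.686 in T24 cells, so the numbers pair libraries within a line, though no label says what a number marks.

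The 10 RNAs and the other gene lists were chosen with earlier results of these data known. Named were all 10 RNAs, at most 3 called genes per list, comparison and direction with the largest change (1 such gene is not reported here), and the 3 genes most like each tested RNA among those with a mean of at least 1 CPM in both lines. Listed genes not matched were 1 neighbor, 1 noncoding RNA and 1 epithelial marker. Promoter and microRNA sequences are from RefSeq (GRCh38.p14), where 6 of the 10 RNAs had a promoter entry used here.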

Additional observations from a re-analysis of the deposited data

Results flagged for a closer look

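MALAT1 moved one way in every UM-UC-3 pair and the other way in every T24 pair with siACAT1-2. Against siNC of the same replicate number it was higher in 3 of 3 pairs of UM-UC-3 cells, with a median log2 ratio of 0.11 (0.06 to 0.29), and lower in 3 of 3 pairs of T24 cells, with a median of -0.18 (-0.30 to -0.10). This pattern was sought in every tested RNA except UCA1 with each of the siRNAs, and MALAT1 with siACAT1-2 was the only case found. The difference for this siRNA alone was not tested. For both siRNAs, the log2 change in UM-UC-3 cells minus that in T24 cells was 0.16 (SE 0.33, adjusted p = 1 with edgeR), and with the replicate block 0.18 (SE 0.12, adjusted p = 0.687).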

How the results depend on the processing

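The number of the 10 RNAs called was unchanged or within 1.5 times in 239 of 255 repeats over the 9 comparisons. In every siRNA comparison the unblocked number was 0, so repeats that again called 0 make up much of this and it is no measure of stability. Within 1.5 times also takes in the loss of GAS5 and SNHG16 over all siRNAs with voom. The gain of NEAT1 with siNC without T24 number 2 is taken in too. With the replicate block the number called rose from 0 to 3 for siACAT1-1 in T24 cells, 1 for siACAT1-2 in T24 cells and 3 between the siRNAs, while the block changed no other siRNA count. DESeq2 gave 1 between the siRNAs (TUG1), and leaving out 1 library gave 0 to 1 there (SNHG16, without T24 siACAT1-2 replicate 2). Without T24 number 2 the count was 1 for siACAT1-1 in T24 cells and 1 between the siRNAs, and with the block as well it was 3, 3 and 5 for siACAT1-1 in T24 cells, siACAT1-2 in T24 cells and between the siRNAs, and 1 each for siACAT1-1 in UM-UC-3 cells, the mean knockdown and the difference between the lines. With the block and without UM-UC-3 number 3 it was 2, 1 and 3 in the first 3 of these. The block moved the number of all genes called from 2 to 617 and 11 to 273 in UM-UC-3 cells, 25 to 2799 and 54 to 1708 in T24 cells, 45 to 2500 for the mean, 515 to 4141 between the siRNAs and 0 to 21 for the difference between the lines. DESeq2 called 18, 39, 399, 254, 318, 1321 and 1 genes in these, no filter 167, 58, 463, 180, 383, 884 and 29, and leaving out 1 library 2 to 452 for siACAT1-1 in T24 cells. Fits on each comparison's own libraries called 1 gene in T24 cells for either siRNA. Small differences turned sign. PVT1 between the lines with siNC (0.0037) was -0.0189 with DESeq2 or its size factors, -0.0353 with no filter, -0.0487 and -0.0337 with limma at pseudocounts of 0.1 and 1, -0.0110 with the block, -0.00653 with voom, -0.147 without UM-UC-3 number 3 and -0.125 to 0.125 with 1 library left out. GAS5 there was -0.0791 without UM-UC-3 number 3 and -0.0583 to 0.251 with 1 library left out. For the mean knockdown, H19 was 0.0602 with limma at a pseudocount of 1 and -0.473 to 0.0570 with 1 library left out, MALAT1 was -0.0201 without T24 number 2, -0.0178 with the block as well and -0.0884 to 0.143, NEAT1 was 0.00914 without UM-UC-3 number 3 and -0.347 to 0.207, PVT1 was -0.0107 to 0.121 and GAS5 -0.131 to 0.0398. NEAT1 was -0.351 in the mean knockdown, and called, with the block and without T24 number 2. Between the lines with siNC NEAT1 was called with no filter (0.94) and without T24 number 2 (1.19). The cause of these changes was not tested. The depth left HOTAIR, MEG3 and UCA1 in UM-UC-3 cells at 0 to 8 counts and H19 in T24 cells at 2 to 34 counts, which limits any statement on the siRNAs there.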

Other observations

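In the model with the replicate block, further cancer-linked noncoding RNAs moved with the ACAT1 siRNAs in T24 cells. With siACAT1-1, DANCR (log2 fold change -1.13), CRNDE and LINC00958 (-0.60 each) were called lower and NORAD (0.59) higher, out of 20 tested, beside 13.9% of all genes called. With siACAT1-2, CCAT1 (-0.85), DLEU2 (-0.60) and CRNDE (-0.56) were among 4 called lower, and MIR22HG (0.39) was called higher, beside 8.48% of all genes. Without the block 0 of the 20 were called by edgeR in either comparison. Between the siRNAs, MIR100HG was lower with siACAT1-2 both without the block (-0.81, adjusted p = 0.0237) and with it (-0.79, adjusted p = 3.9e-05). Over both lines and siRNAs, 4 of the 20 were called lower with the block, among them DANCR (-0.64), TP53TG1 (-0.62) and CRNDE (-0.37). NORAD and MIR22HG (0.30 each) were the 2 called higher, beside 12.4% of all genes.

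In the siRNA comparisons, genes of paraspeckle proteins were called with the block and 0 of 18 without it (edgeR). In T24 cells with siACAT1-1, HNRNPA1 (-0.66) and HNRNPH3 (-0.55) were among 3 called lower, and SMARCA4 (0.33) was called higher, of 18 tested, beside 13.9% of all genes. Over both lines and siRNAs 4 of the 18 were called lower, among them CPSF7 (-0.40), HNRNPH3 (-0.37) and HNRNPA1 (-0.36), beside 12.4% of all genes. Of the 12 proliferation genes, all 12 had a negative log2 fold change over both lines and siRNAs (median -0.45), 0 were called without the block and 11 with it, among them CCNB1 (-0.79), MKI67 and CDC20 (-0.77 each). IGF2, the neighbor of H19, was higher with siACAT1-2 than with siACAT1-1 in the blocked fit (0.99, adjusted p = 6.6e-06), where 20.6% of all genes were called. It was not called without the block (0.99, adjusted p = 0.0772). H19 itself was at -0.63 (SE 0.25, adjusted p = 0.0836) in the same blocked comparison. That H19 value averages both lines, and H19 had only 2 to 34 counts in a T24 library. Between the siRNAs, log2 ratios of H19 ran from -0.57 to -0.11 in UM-UC-3 pairs and from -2.91 to 2.10 in T24 pairs.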
